A study of Mus musculus with 12 samples.

Results

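The genes described here are 8 mouse genes of lysosomal breakdown: the sulfatases Sgsh, Galns, Arsa, Arsb and Ids, the sulfatase-modifying factor genes Sumf1 and Sumf2, and Ppt1. They were chosen by name among 21887 protein-coding genes, with earlier results of these data known. For each gene, the peaks collected were those whose summit was at most 1000 bp away from an end of its annotated span (gene-end peaks) and those inside it, from 4 lists of USF2 binding sites. USF2, which belongs to the basic helix-loop-helix leucine zipper transcription factors, had been pulled down with its DNA by chromatin immunoprecipitation and sequencing (ChIP-seq). The cells were wild-type mouse embryonic fibroblasts (MEFs) under glucose starvation (2 libraries) or in normal culture (2 libraries), and these are 4 of the series' 12 samples. The labels give neither how long glucose was withheld nor whether libraries of a condition came from separate cultures. Input libraries and libraries for the histone mark H3K27ac were not analysed here. Peak lists do not measure expression, so the labelled cell type was not checked against fibroblast markers.

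Lysosomal sulfatases cut sulfate groups from glycosaminoglycans and sulfated lipids, and a lack of any of them lets its substrate pile up in a lysosomal storage disease. None of them works as first translated: the SUMF1 protein, in the endoplasmic reticulum, turns a cysteine in their active site into formylglycine, the residue that attacks the sulfate ester. SUMF2 is a relative of SUMF1 that does not carry out this step. PPT1 is a lysosomal thioesterase that takes palmitate off proteins, and its loss causes an infantile neuronal ceroid lipofuscinosis in humans. USF proteins bind as dimers to the E-box, a short palindromic DNA motif that also forms the core of the CLEAR element found at many lysosomal genes.

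USF2 was called at Sgsh, Arsa and Sumf1 in all 4 lists, and at Galns and Ppt1 in both starved lists but in neither normal list. Arsb, Ids and Sumf2 had no peak in any list. The sites are printed as RefSeq sequence of GRCm38.p6, 5′ to 3′ on the strand of the promoter entry, to show their core letters. The 3 sites called under both conditions carried CACGTG, and the 2 called under starvation did not. TCACATGA, on either strand, was in those 2 sites and also at Sumf1, which was called under both conditions. Capitals mark every match to CACGTG or to TCACATGA on either strand, the latter motif having been chosen after these sequences were seen.
Sgsh, chr11:119355504-119355569, minus strand: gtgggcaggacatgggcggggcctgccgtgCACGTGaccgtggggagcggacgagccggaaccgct
Arsa, site inside the gene, chr15:89476142-89476207, plus strand: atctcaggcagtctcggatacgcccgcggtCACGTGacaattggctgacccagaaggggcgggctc
Sumf1, chr6:108185559-108185624, minus strand: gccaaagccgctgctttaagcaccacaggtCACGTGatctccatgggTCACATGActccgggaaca
Galns, at the start of Trappc2l, chr8:122611602-122611655, plus strand: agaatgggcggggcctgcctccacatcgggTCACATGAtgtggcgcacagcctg
Ppt1, chr4:122836210-122836256, plus strand: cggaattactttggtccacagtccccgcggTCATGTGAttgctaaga

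Before the values, the 2 lists of each condition were compared with each other. Each peak carries a fold enrichment, the authors' ratio of read pileup at the summit to local background, and a q-value, the p-value adjusted by their peak caller. The number of reads at each summit was recovered from the deposited fold enrichment and p-value. Over 543 overlapping peak pairs of starved 1 and starved 2, these reads differed by only 0.161 times the variance that independent counting would give (chi-square per degree of freedom), and over 1053 pairs of normal 1 and normal 2 by 0.107 times. Among pairs with at least 30 reads in all, these ratios were 0.215 (226 pairs) and 0.147 (219 pairs), whereas the 4 pairs of lists across conditions had 1.26 to 1.42. The libraries of a condition thus differed by less than the sampling noise. They were counted as 1 sample per condition, so the values below have no replicate error, no test between conditions was made, and a call in both lists of a condition is not independent support. The lists held 825 and 1178 peaks (starved) and 1645 and 2124 peaks (normal) on the assembled chromosomes, and their narrowest peaks were 306 bp and 152 bp wide. Sequencing depth was not measured here. With list length and peak width both different, fold enrichments of starved and normal lists stand side by side here. They are not compared as amounts of binding.

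**Figure D1:**
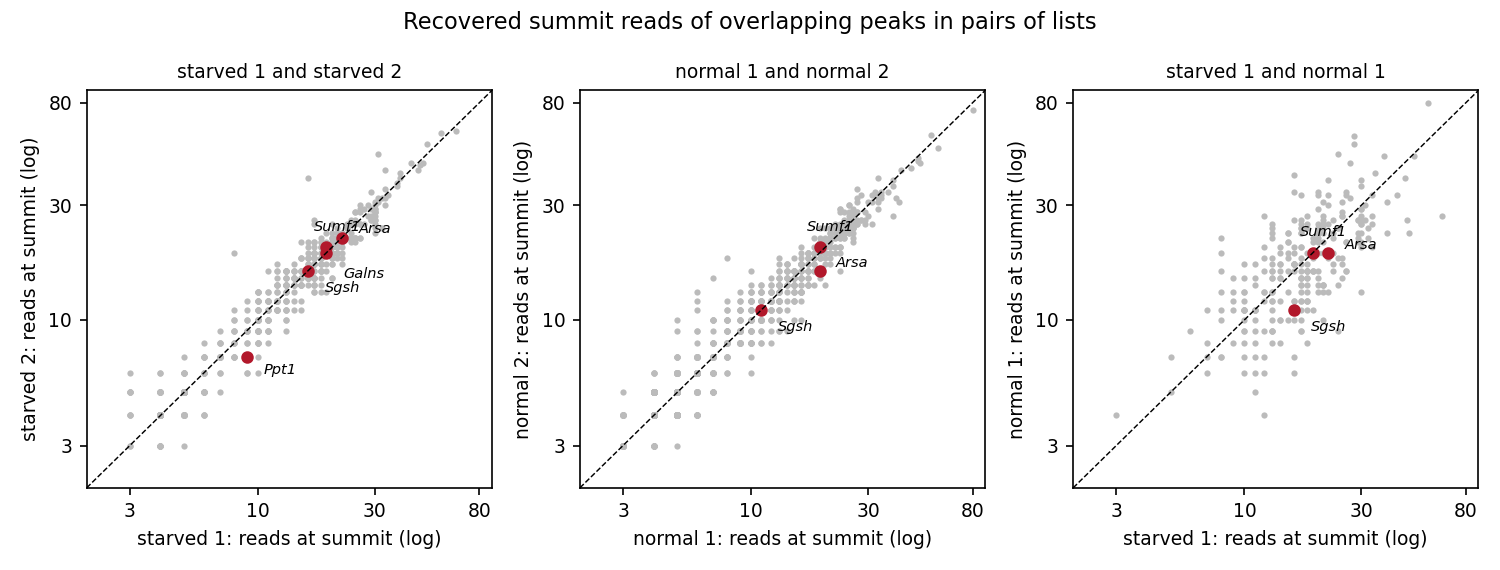
Reads at the summit of overlapping peaks, 1 grey point per peak pair, on log axes, for starved 1 and 2, for normal 1 and 2, and for starved 1 and normal 1. Red points are peaks of the named genes. Pairs of the same condition lie close to the dashed line of equal reads, and the pair across conditions scatters widely around it.

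With peaks inside genes included, 5 of the 8 genes were called in both starved lists, against 3 of 8 in both normal lists. The same rule called 2.48% of all protein-coding genes in both starved lists and 4.08% in both normal lists. Counting gene ends alone, 4 of 8 were called in both starved lists (1.78% of all genes) and 2 of 8 in both normal lists (2.19% of all genes). All 4 lists called 2 of 8 at a gene end (1.13% of all genes) and 3 of 8 with peaks inside genes (1.35%). At least 1 list called 4 of 8 at a gene end (4.05%) and 5 of 8 with peaks inside genes (10.5%). Farthest from a gene end among the gene-end peaks was a Ppt1 summit at 282 bp, and just outside the 1000 bp limit lay the Arsa summits, 1242 to 1317 bp from an end.

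**Figure D2:**
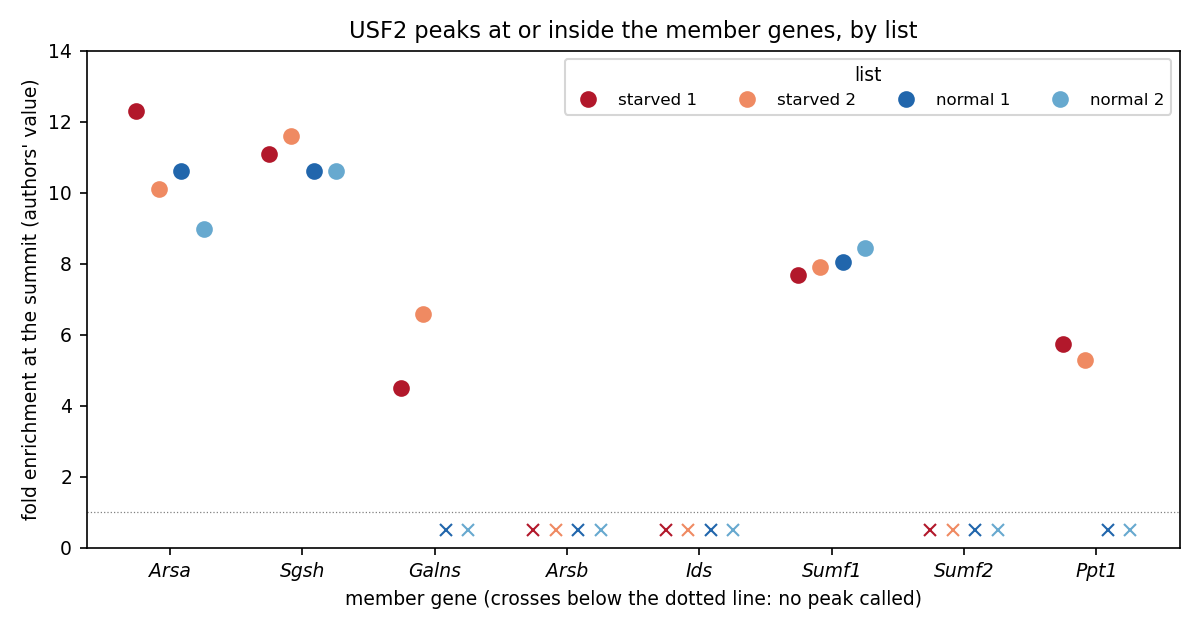
Fold enrichment at the summit (vertical axis, the authors' ratio) for each of the 8 genes in starved 1, starved 2, normal 1 and normal 2. Crosses below the dotted line mark lists with no peak and have no fold value. Sgsh, Arsa and Sumf1 have a point in every list, between 7.68 and 12.3, and Galns and Ppt1 only in the starved lists, between 4.49 and 6.59.

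Among the sulfatases, Sgsh encodes sulfamidase, which takes N-linked sulfate off heparan sulfate. The gene (chromosome 11, 119343489 to 119355510) is read from the minus strand in its RefSeq promoter entry. Its peak had a fold enrichment of 11.1 and 11.6 in starved 1 and 2, against 10.6 in both normal 1 and normal 2. Both starved values were above both normal values, by less than the gap between the 2 starved Galns or Arsa values. The recovered local background was 0.529 and 0.467 reads in starved 1 and 2, against 0.135 in both normal lists. This order is not read as a difference in binding. The −log10 q was 14.3 and 15.1 in the starved lists and 13.9 in both normal lists, on 16 reads at the summit in each starved list and 11 in each normal list. By q-value the peak ranked 92 of 825 and 84 of 1178 in the starved lists, and 141 of 1645 and 152 of 2124 in the normal lists, so in every list it stood within the best 11.2%. All summits lay upstream of the Sgsh start, by 81 and 77 bp in the starved lists and by 37 and 56 bp in the normal lists. Slc26a11, a gene of an anion transporter family, begins its annotated span at 119355509, next to the Sgsh start, so the peak cannot be assigned to either gene alone.

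Arsa encodes arylsulfatase A, which breaks down the myelin lipid sulfatide. Its peak had a fold enrichment of 12.3 and 10.1 in starved 1 and 2, against 10.6 and 8.99 in normal 1 and 2. The ranges of the conditions overlapped, and starved 1 was highest. The −log10 q was 18.8 and 15.3 in the starved lists and 14.4 and 10.8 in the normal lists, with 22 reads at the summit in each starved list and 19 and 16 in the normal lists. It ranked 62 of 825 and 83 of 1178 in the starved lists, and 136 of 1645 and 242 of 2124 in the normal lists. In starved 1 it was the strongest peak of the 5 called genes by fold enrichment, and in starved 2 it came after Sgsh.

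The Arsa peak did not lie at the start of Arsa. The gene spans chromosome 15, 89472476 to 89477424, with its start at the higher coordinate, and the summits lay 1311 and 1317 bp inside it in the starved lists and 1242 and 1244 bp in the normal lists. There the annotation places the start of C230037L18Rik, a long non-coding RNA gene of the other strand (89476252 to 89484850), whose promoter entry holds the sequence shown above. In it CACGTG has GT before and AC after it, which makes the full palindrome of the CLEAR element. This palindrome was found in 0.326% of 32851 promoter windows on either strand. Among the 150 windows with summits of all 4 lists it was found in 13.3%. The window at the start of Arsa itself also holds a CACGTG, printed here because no list called a peak over it.
Arsa, start of the gene, chr15:89477405-89477470, minus strand: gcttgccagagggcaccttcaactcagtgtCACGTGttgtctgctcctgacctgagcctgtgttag
The Arsa summits were 1255 to 1330 bp away from this second match. No protein-coding gene had an end within 1000 bp of them.

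Galns encodes the sulfatase that takes sulfate off galactose and N-acetylgalactosamine in keratan sulfate and chondroitin sulfate. Its peak at the upper end of the gene (chromosome 8, 122578237 to 122611701) had a fold enrichment of 4.49 and 6.59 in starved 1 and 2, and no peak was called there in normal 1 or 2. The 2 starved values stood on the same 19 reads at the summit, and the recovered local background was 3.46 reads in starved 1 and 2.03 in starved 2. In the starved lists the −log10 q was 4.55 and 8.30, and the peak ranked 384 of 825 and 216 of 1178. The median fold enrichment of all peaks was 5.54 in starved 1 and 5.30 in starved 2, so Galns was below it in the first list and above it in the second. Summits lay 84 and 46 bp from the gene end. They stood 9 bp before and 29 bp after the start of Trappc2l, which encodes a subunit of the TRAPP trafficking complex, so this peak too is shared. Galns has no entry in the promoter table, and the sequence shown is that of Trappc2l.

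Arsb, which encodes arylsulfatase B of dermatan sulfate breakdown, and Ids, the X-linked gene of iduronate sulfatase in heparan and dermatan sulfate breakdown, had no peak at or inside the gene in any list. The nearest summit to an end of Arsb (chromosome 13, 93771679 to 93943016) was 1970 and 62.2 kb away in starved 1 and 2, and 1430 and 1820 kb away in normal 1 and 2. For Ids (chromosome X, 70343069 to 70385834) these distances were 645 and 7050 kb in the starved lists and 829 and 650 kb in the normal lists. A gene without a call fell short of the caller's threshold, so absence of binding was not measured there.

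Of the genes acting on the sulfatases, Sumf1 was called in every list and Sumf2 in none. The Sumf1 peak (gene on chromosome 6, 108107021 to 108185591) had a fold enrichment of 7.68 and 7.92 in starved 1 and 2, against 8.05 and 8.45 in normal 1 and 2. Both normal values were higher, on a recovered local background of 1.48 reads in both normal lists, against 1.61 and 1.65 in starved 1 and 2. This order is not read as a difference in binding. The −log10 q was 10.01 and 10.9 in the starved lists and 10.5 and 11.6 in the normal lists, with 19 and 20 reads at the summit under either condition. The peak ranked 155 of 825 and 146 of 1178 in the starved lists, and 205 of 1645 and 217 of 2124 in the normal lists. It was 745 and 854 bp wide in the starved lists and 153 and 162 bp wide in the normal lists, the broadest starved peaks among the 5 called genes, and reached mostly into the gene. Its summits lay within 25 bp of the gene end in all 4 lists, and no other annotated gene had an end within 1000 bp. The nearest summit to an end of Sumf2 (chromosome 5, 129846990 to 129863951) was 177 kb away in both starved lists, and 3960 and 240 kb away in normal 1 and 2.

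At Ppt1 (chromosome 4, 122836077 to 122859175) the peak had a fold enrichment of 5.74 and 5.30 in starved 1 and 2, and neither normal list called one. It was the weakest of the 5 called genes by q-value, with a −log10 q of 3.79 and 3.003, and ranked 501 of 825 and 815 of 1178. Its summits held 9 and 7 reads, the fewest of the 5 called genes. The median over all peaks of these lists was 8 and 6. The summits lay 36 and 132 bp downstream of the start in the promoter entry, the largest spread between lists of 1 condition among these genes (96 bp). No other annotated gene had an end within 1000 bp of them. In the normal lists the nearest summits were 97.5 and 782 kb from an end of Ppt1, and for Galns 164 and 54.5 kb.

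Galns and Ppt1 were called under starvation alone. Of all protein-coding genes, 0.557% had a gene-end call in both starved lists with none in normal cells, and so did 2 of these 8, Galns and Ppt1. With peaks inside genes the share was 0.946% and the members were the same 2. Such genes made up 122 of the 390 genes called in both starved lists (31.3%), and 2 of the 4 members called there. In the other direction, 0.841% of all genes and 0 of the 8 were called in both normal lists with none under starvation. Galns and Ppt1 had the lowest −log10 q of the called members in starved 1 and starved 2. The lists of the 2 conditions also differed in length and peak width, as given above. The part of these differences in the calls was not tested.

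The position of the motif within each peak was read from the promoter windows, which run from 250 bases before to 50 after the annotated start. In every list that called a peak, the marked motif lay inside it. For TCACATGA, picked after the called sequences were seen, this was largely fixed beforehand and is no support for that motif. The inner Arsa window, that of C230037L18Rik, was likewise picked because the peak lies there, so its CACGTG is no independent support. At Sgsh the summit was 55 and 51 bp from the centre of CACGTG in starved 1 and 2, and 11 and 30 bp in normal 1 and 2. At the inner Arsa site these distances were 62 and 68 bp in the starved lists and 8 and 6 bp in the normal lists. At Sumf1 they were 26 and 1 bp in the starved lists and 14 bp in both normal lists, measured to CACGTG. Sumf1 also carries TCACATGA at 108185570 to 108185577. The summits in starved 1 (108185566) and both normal lists (108185578) were nearer to that motif than to CACGTG (108185589 to 108185594). The starved 2 summit (108185591) lay on CACGTG. The normal summits of Sgsh and Arsa were thus nearer to the motif, in lists whose narrowest peaks were narrower as well. At Galns and Ppt1 the starved summits were 19 and 20 bp, and 20 and 116 bp, from the centre of TCACATGA, which Ppt1 carries on the opposite strand.

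**Figure D3:**
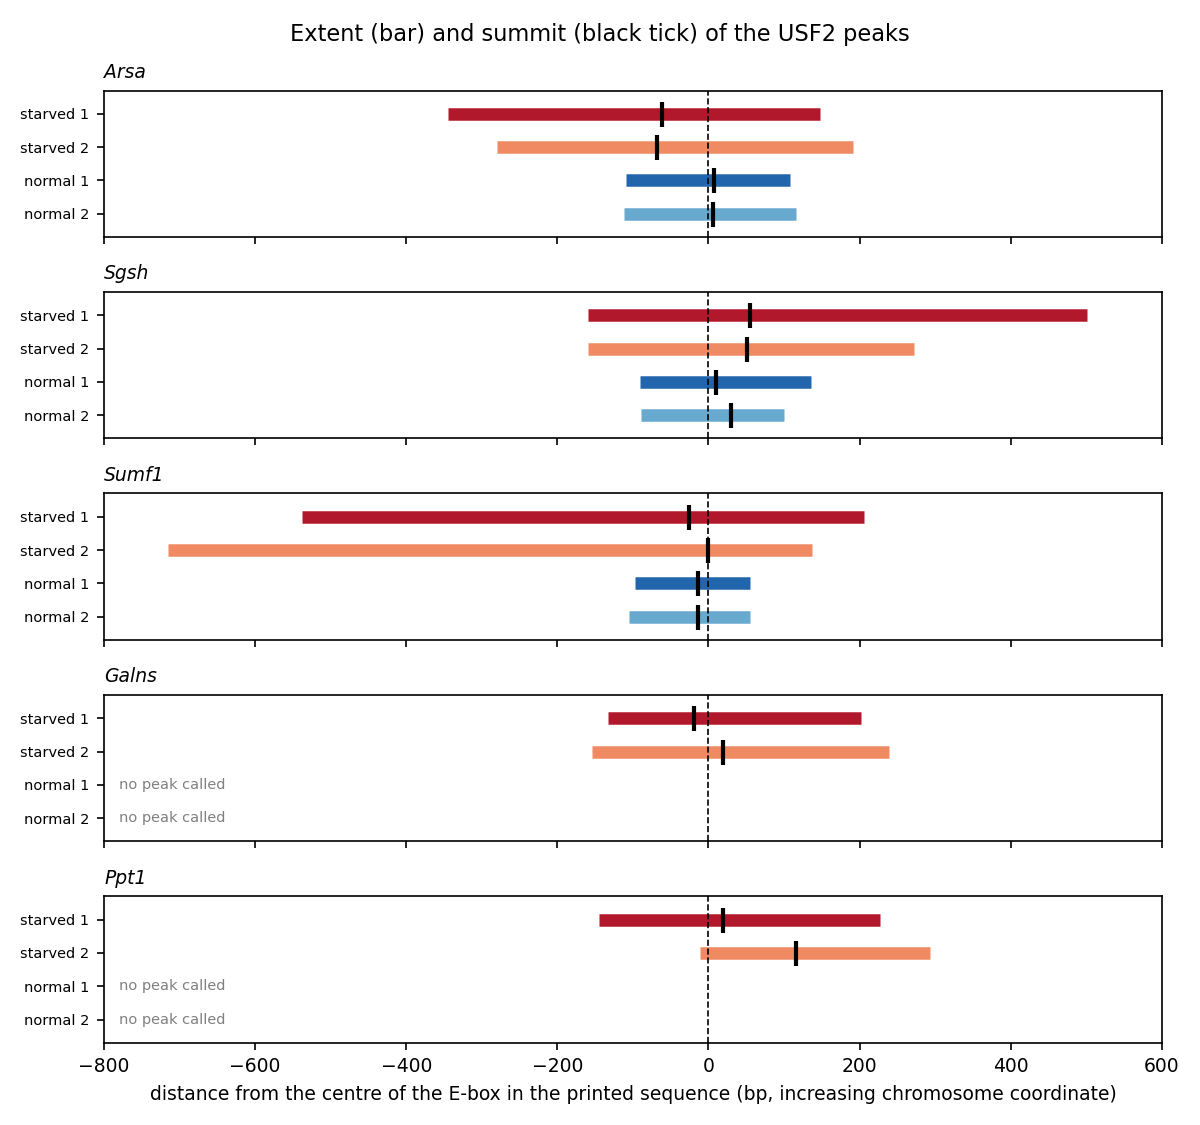
Extent (bar) and summit (black tick) of each USF2 peak at the 5 called genes, starved lists above normal lists, by distance in bp from the centre of the E-box or its variant (dashed line). At Sumf1, which holds both, the line marks CACGTG. Every bar crosses the dashed line, starved bars are wider than normal bars at Arsa, Sgsh and Sumf1, and Galns and Ppt1 have no normal bar.

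Of the 8 genes, 7 had 1 promoter entry each, and 3 of these 7 windows held CACGTG (Arsa, Sgsh, Sumf1), against 7.15% of all 32851 windows. No window of Arsb, Ids or Sumf2 held CACGTG or TCACATGA. The Ids entry starts at 70365085, inside the annotated span, so its window does not cover a gene end. Ppt1 and Sumf1 held TCACATGA, against 0.986% of all windows, and in Sumf1 11 bases separate it from CACGTG, as printed above. Windows with summits of all 4 lists held CACGTG in 92.0% of 150 cases, and windows with summits of both starved lists and no normal peak in 88.5% of 78. Windows with summits of both normal lists and no starved peak held it in 41.7% of 127, and windows without any peak in 5.98% of 32138. A starved call without CACGTG in the window was therefore the less usual kind. TCACATGA without CACGTG was found in 1 of the 78 windows called under starvation alone, that of Trappc2l at the Galns site, in 9 of the 127 called in normal cells alone and in 0.881% of windows without a peak. Ppt1 is not among the 78, because its starved 2 summit lay past the end of its window. These matches describe letters in a fixed window, and other motifs or sites outside it were not looked at.

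**Figure D4:**
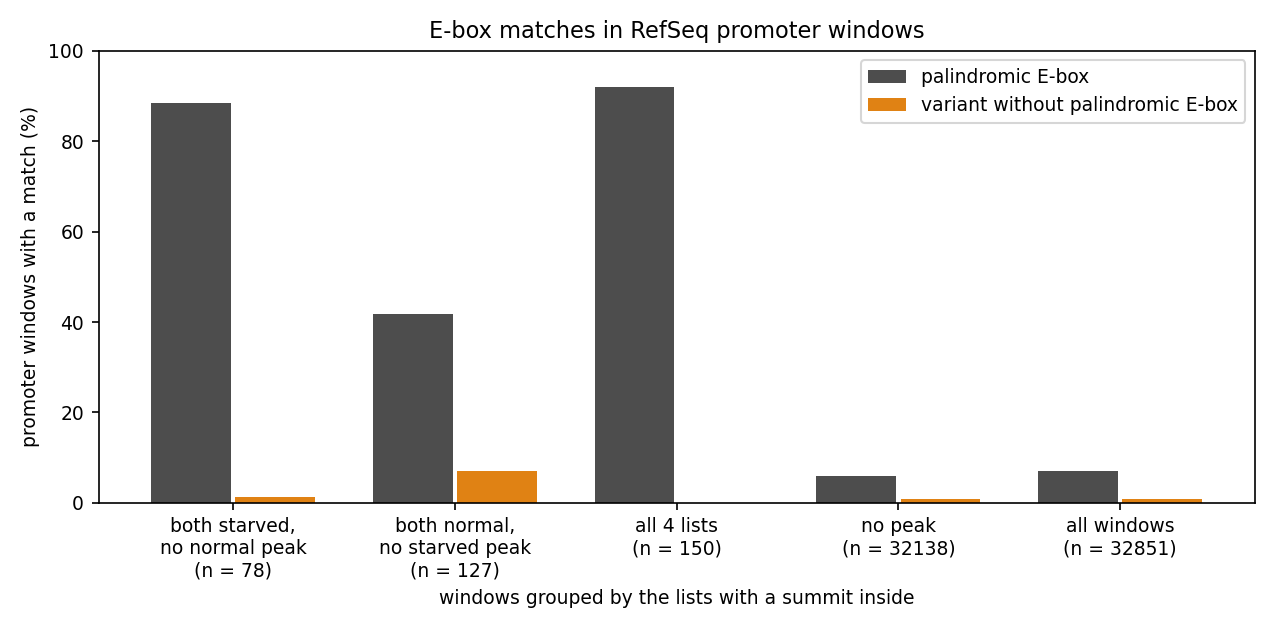
Share of RefSeq promoter windows (vertical axis, percent) with the palindromic E-box (grey) or with its variant alone (orange), grouped by the lists that have a summit in the window. The E-box was in 88.5% of windows called in starved lists alone, 41.7% of those called in normal lists alone and 92.0% of those called in all 4 lists, against 5.98% without a peak.

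Genes that act beside these 8 were described from 5 lists of 42 genes. None of the 6 other sulfatases described here was called at a gene end in any list. Of all genes, 4.05% were called there in at least 1 list, so at this list size the 0 is near that share and is no result about the list. Sulf1, an extracellular sulfatase that edits heparan sulfate, had a peak inside the gene in the starved lists alone. With peaks inside genes, 0.946% of all genes had a call of this kind. The Sulf1 peak had a fold enrichment of 6.08 and 5.30 on 6 and 5 reads, and Arsg, Arsk, Arsi, Arsj and Sulf2 had none.

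Of 10 other enzymes and cofactors of glycosaminoglycan breakdown, 3 were called at a gene end in both starved lists (1.78% of all genes) and 4 in both normal lists (2.19%), the 3 being among the 4. Naglu, which acts in the same heparan sulfate pathway as Sgsh, had a fold enrichment of 7.06 and 7.30 in the starved lists, against 9.15 and 9.14 in the normal lists. Glb1, the lysosomal beta-galactosidase, had 6.54 and 9.71 in the starved lists, against 7.11 and 6.40 in the normal lists. Hexa, a beta-hexosaminidase subunit, was called in starved 2 (4.09) but not in starved 1, and had 7.41 in both normal lists. The fourth was Ctsa, which shields the beta-galactosidase and sialidase from breakdown, with 12.5 and 11.3 in the starved lists, against 30.1 in both normal lists. Its summits held 30 and 26 reads in the starved lists and 38 in both normal lists. The recovered local background was 1.48 and 1.40 reads in the starved lists, against 0.297 in both normal lists. Idua, the iduronidase gene, had a peak inside the gene in starved 2 alone (6.07), at an end of Slc26a1. Of the 7 sphingolipid-degrading enzymes and activators described here, which act beside arylsulfatase A, 1 was called at a gene end in all 4 lists (1.13% of all genes), Gla. Gla, the alpha-galactosidase gene, had 8.05 and 11.6 in the starved lists, against 8.23 in both normal lists.

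Of the 12 other genes of neuronal ceroid lipofuscinoses, 1 was called in all 4 lists (1.13% of all genes), Ctsd, the cathepsin D gene, with 5.37 and 4.87 in the starved lists, against 5.65 and 6.90 in the normal lists. None of the 7 other depalmitoylating thioesterase genes had a peak at or inside the gene in any list. By this rule at least 1 list called 10.5% of all genes, so at this list size the 0 is near that share and is no result about the list. Over the 42 genes, 5 were called at a gene end in both starved lists (1.78% of all genes) and 6 in both normal lists (2.19%), the 5 being among the 6. None of the 42 was called at a gene end under starvation alone, a kind of call that 0.557% of all genes had, so at this list size the 0 is near the share of all genes and is no result about the list. Of the 6 called genes, all had a promoter entry and 5 of these held CACGTG, and of the 36 not called at a gene end, 27 had one and 3 of these held it. Peaks at Glb1, Hexa, Gla and Ctsa were shared, with an end of Tmppe, Tmem202, Hnrnph2 and Neurl2 at most 1000 bp from the summit.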

How the data were processed

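The authors deposited 1 peak list per USF2 library, not pooled. Per the submitters' processing notes the build was GRCm38, and the tools included MACS2 2.2.7.1, deepTools 3.5.1 and Bowtie2 2.5.1. Their parameters are not given in the sources used here. The deposited values are, per peak, a fold enrichment (a ratio), −log10 p and −log10 q, a score made from −log10 q, and the offset of the summit.

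Only peaks of the assembled chromosomes were used (Python 3.11.15, pandas 2.3.3, scipy 1.17.1). Spans came from RefSeq genes of GRCm38.p6, which give no exons or UTRs. Reads k and background b at each summit solve fold = (k + 1)/(b + 1) with the Poisson tail above k equal to p. Every deposited p was met to within 0.001 (log10), and of 5772 simulated peaks 100.0% were recovered. Reads are not independent molecules.

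Members and gene lists were chosen with earlier results of these data known. All 8 members are named, with genes sharing their peaks and called list genes, and some list genes are not reported here. No test was made. Alternatives covered distance, q-value, list length, reads, overlap, shared peaks, peaks inside genes, left-out libraries and motif.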

Additional observations from a re-analysis of the deposited data

How the results depend on the processing

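The counts of genes called at a gene end were 2 in all 4 lists, 4 in both starved lists, 2 in both normal lists and 4 in at least 1 list. Leaving out any of the 4 libraries gave the same 4 counts. The remaining list of a condition is nearly the same sample and called the same members, so this is no independent support. Without peaks shared with another protein-coding gene they were 1, 2, 1 and 2, since Sgsh and Galns then have no peak. With −log10 q of at least 5, both starved lists called 2, as neither Galns (1 starved list) nor Ppt1 (none) passed in both. With at least 10 reads at the summit Ppt1 was lost, and within 5000 bp or inside the gene Arsa was added. Limits of 500 bp, overlap in place of the summit and 825 peaks per list changed no count. Promoter windows of the members with a motif numbered 3 for CACGTG, 0 for CACGTG with GT before and AC after it and 6 for CANNTG, and 2 for TCACATGA, chosen after seeing the data. No paired analysis was possible because the counts come from no test. The Ppt1 call rested on 9 and 7 reads at its summits, and other sequencing depths were not tried.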

Other observations

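Beside the close agreement of summit reads, the lists of a condition shared exact coordinates. The overlapping peaks of starved 1 and starved 2 had the same summit base in 4.42% of 543 pairs and an identical start or end in 21.7%, and those of normal 1 and normal 2 in 32.4% and 44.7% of 1053 pairs. Among pairs with at least 30 reads in all, the same summit base occurred in 3.10% of starved and 16.0% of normal pairs, and in 1.06% to 2.87% of pairs across conditions. At Sumf1 both normal summits fell on the same base (108185578), and at Sgsh both starved peaks began at the same base (119355377).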
